A study of Mus musculus and Homo sapiens with 15 samples.

Results

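The 6 genes described here encode 14-3-3 proteins: Ywhab (14-3-3 beta), Ywhae (epsilon), Ywhag (gamma), Ywhah (eta), Ywhaq (theta) and Ywhaz (zeta) in mouse brain, and the same symbols in capitals in human HEK293XT cells. They were chosen by name, wherever an edit cluster carried one of the symbols before the colon of its label, and they were 6 of the 20838 gene symbols named by brain clusters and 6 of the 18756 named by HEK293XT clusters. In all, 454 separate stretches of clusters in the mouse and 90 in the human genome carried a member symbol. Sfn (14-3-3 sigma), the remaining family member, is mainly an epithelial gene. It had 1 edited read in enzyme-only replicates 1 and 3 and 0 in each of the other brain libraries, and was not followed further.

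14-3-3 proteins are small acidic adaptors that work as dimers and bind partner proteins at phosphorylated serine or threonine residues, thereby changing where the partner sits in the cell, how stable it is or what else it can bind. They are among the most abundant soluble proteins of neurons. RBFOX2 is a splicing factor of the RBFOX family that binds UGCAUG in pre-mRNA and in 3′ UTRs, and its paralogues RBFOX1 and RBFOX3 recognise the same letters. In INSCRIBE, fixed cells or tissue are incubated with an antibody against an RNA-binding protein and then with the C-to-U deaminase APOBEC1 fused to a nanobody that holds on to the antibody, so that cytosines near the bound protein are deaminated and read as C-to-T changes in RNA-seq.

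The series held 15 libraries in 5 groups of 3. Brain RBFOX2-INSCRIBE libraries came from PFA-fixed coronal slices given a rabbit anti-RBFOX2 antibody and the enzyme, brain enzyme-only libraries from slices given the enzyme with no primary antibody, and brain buffer-only libraries from slices given neither. All slices were from female C57BL/6J mice aged 2 months. Each replicate was a slice. The methods speak of a pair of mice and the study's reporting form of a single mouse, and which slice came from which animal is not given in the sources used here. The p-values below therefore measure only the spread between slices. The HEK293XT libraries, from a human embryonic kidney cell line, all had enzyme and no RBFOX2 antibody and differed in the RNA taken into the library, 1 ng or 100 pg. For the cell experiments the study names culture wells as the replicates. By its methods the 1 ng and 100 pg libraries were made with a single-cell/low-input kit. The standard protocol used ribosomal RNA depletion and a stranded total RNA kit.

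For each library the files listed positions with at least 1 C-to-T read and at least 5 covering reads, with the edited reads, the covering reads and a score, the probability that the edited share exceeds 1%. The study kept sites with a score above 0.5 and an edited share below 0.8 (filtered sites) and called edit clusters from them. RBFOX2-INSCRIBE libraries had 243545 to 281314 filtered sites, enzyme-only libraries 221730 to 239874 and buffer-only libraries 159087 to 217309. HEK293XT libraries had 39826 to 53448 filtered sites from 1 ng and 30571 to 31898 from 100 pg. Every neuronal marker sum in the brain libraries (5691 to 7766 CPM) was above every one in HEK293XT (26.5 to 136 CPM, with 5 to 8 of the 9 markers at 0). For these sums, CPM is listed edited reads scaled to the listed edited reads assigned to genes in the library. A lower edited-read count in a bulk library can come from fewer cells, less RNA per cell or a smaller share of edited reads, and these cannot be told apart by the count itself.

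In brain the filter kept a small and unlike part of what was listed in the 14-3-3 genes. Over the 9 brain libraries the members had 795 kept and 8341 dropped sites. The kept sites had a median of 17 covering reads and a median edited share of 5.88%, and 731 of them rested on 1 edited read. The dropped sites had a median of 1331 covering reads and a median edited share of 0.103%. Over all listed sites of a brain library the filter kept 48.45 to 56.5%, and their median cover was 53 to 82 reads. Because the score asks for a share above 1%, 1 edited read was enough at 69 covering reads, 2 were needed at 70, 11 at 1000 and 21 at 2000. Of 2732 listed coding-exon sites 2 were kept, and of 5235 listed 3′ UTR sites 45 were kept (0.860%), against 692 of 715 intronic sites. Introns thus held 87.0% of filtered sites but 7.83% of listed sites, and 3′ UTRs 5.66% of filtered but 57.3% of listed sites.

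**Figure D1:**
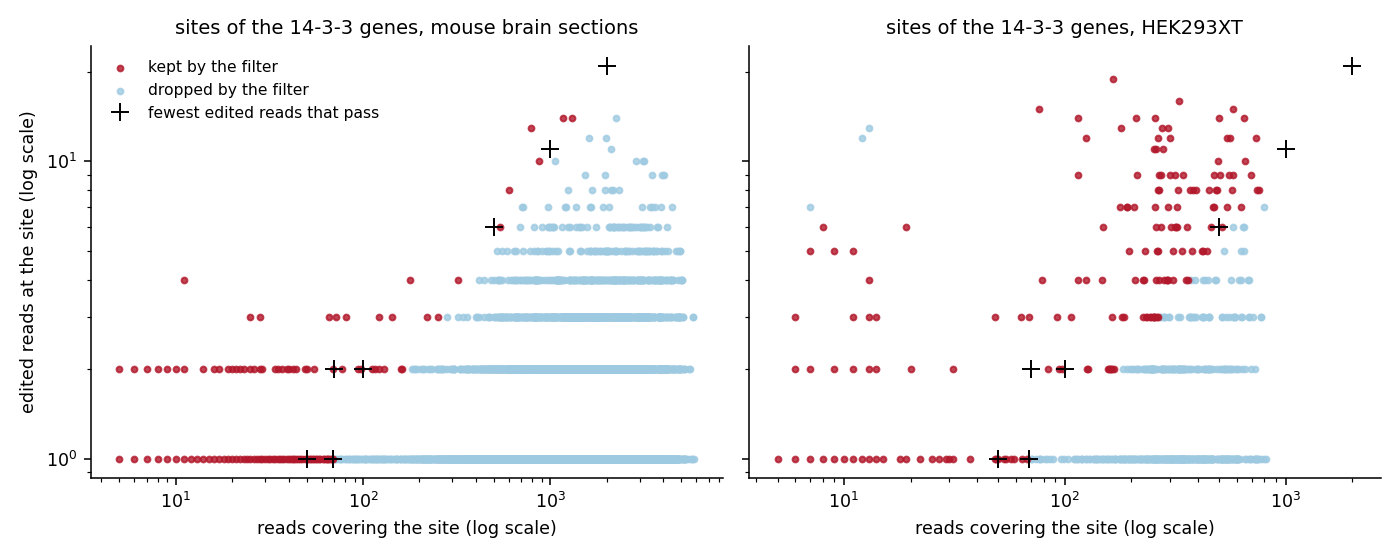
Each point is a listed site of a 14-3-3 gene in 1 library, with covering reads on a log x axis and edited reads on a log y axis, sites kept by the filter in red and dropped ones in blue, and crosses at the fewest edited reads that pass, for brain and for HEK293XT. In brain the kept sites gather at a median of 17 covering reads and the dropped ones at 1331, while in HEK293XT the medians are 157 and 328.

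The filtered and the listed sites also differed in how often they recurred. Listed sites of the members lay at 3403 positions in brain, 60.3% of them in at least 2 libraries, with 290 positions in all 3 RBFOX2-INSCRIBE libraries, 242 in all 3 enzyme-only libraries and 84 in all 3 buffer-only libraries. Filtered sites lay at 758 positions, of which 34 were in at least 2 libraries and 0 in all 3 libraries of any group. Sites with at least 5 edited reads numbered 114 in RBFOX2-INSCRIBE, 48 in enzyme-only and 9 in buffer-only libraries, and of these 8 in RBFOX2-INSCRIBE, 5 in enzyme-only and 1 in buffer-only were unlisted in the further libraries of their own group. The letter before the edited cytosine was A or U, which APOBEC1 prefers, for 60.0, 57.2 and 63.4% of listed sites in the RBFOX2-INSCRIBE replicates, 57.5, 56.9 and 59.3% in the enzyme-only replicates and 50.8, 47.3 and 48.1% in the buffer-only replicates. For filtered sites it was 64.7, 62.0 and 76.2% in RBFOX2-INSCRIBE, 53.5, 56.5 and 65.2% in enzyme-only and 56.8, 62.5 and 51.8% in buffer-only replicates, so that enzyme-only and buffer-only overlapped on this count and were apart on the listed one.

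Ywhag, the gamma isoform, which is rich in neurons and is mutated in a human epileptic encephalopathy, was the 1 member with a call for RBFOX2-INSCRIBE over enzyme-only slices, on filtered sites in clusters (log2 change 1.28). With every listed site in the same clusters the log2 change was 0.50 (edgeR adjusted p 0.264), and the gene was not called. The cause was not tested. The gene lies at chr5:135908409-135934616 on the minus strand of mm10. Its 3′ UTR of 2589 nt holds UGCAUG 2 times, and the reads that set the groups apart lay just downstream of the copy nearer the 3′ end. That stretch is shown because it carries the motif and the 2 most edited cytosines of the gene, the capitals marking UGCAUG (written with T) and those 2 cytosines, at 135908947 and 135908942. The matching stretch of human YWHAG (GRCh38, chr7:76327318-76327347, minus strand) was identical at 28 of 30 letters, with only the motif in capitals.
Ywhag chr5:135908940-135908969: tgTGCATGctggtgttgtatttCtataCgg
YWHAG chr7:76327318-76327347: tgTGCATGctagtgttgtatttctatacag

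At 135908947 of Ywhag, 14 of 1301, 14 of 1175 and 7 of 967 reads were edited in the RBFOX2-INSCRIBE replicates and 4 of 1083, 3 of 1226 and 3 of 954 in the enzyme-only replicates, and 1 of 1561 in buffer-only replicate 1, the site being unlisted in the other buffer-only libraries. At 135908942, 10 of 868, 13 of 790 and 6 of 689 reads were edited in RBFOX2-INSCRIBE, 4 of 742, 2 of 849 and 4 of 639 in enzyme-only slices, and in buffer-only replicates 2 and 3 the counts were 1 of 835 and 1 of 532. At both cytosines every RBFOX2-INSCRIBE count was above every enzyme-only count, and every enzyme-only count was above every buffer-only count. The 2 sites were picked as the most edited of the gene and lie in a cluster chosen by RBFOX2-INSCRIBE calls. For single sites here and below, the share of all listed sites that separate in this way was not worked out. The counting error of single libraries was wide: the exact (Clopper-Pearson) 95% interval of the edited share at 135908947 was 0.590 to 1.80% for RBFOX2-INSCRIBE replicate 1 and 0.101 to 0.943% for enzyme-only replicate 1. Such intervals cover counting error only, since reads without molecular identifiers are not independent molecules.

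The authors' confident RBFOX2-INSCRIBE list held a 75-nt cluster there, chr5:135908875-135908949, in the last exon and 13 nt from the motif. Over every listed site of that cluster, Ywhag had 41, 41 and 37 edited reads in the RBFOX2-INSCRIBE replicates, 20, 12 and 24 in the enzyme-only replicates and 1, 1 and 2 in the buffer-only replicates. These were 0.818, 0.725 and 0.664% of covering reads in RBFOX2-INSCRIBE slices, 0.449, 0.236 and 0.463% in enzyme-only and 0.0641, 0.120 and 0.199% in buffer-only slices. The groups did not overlap. The cluster had been chosen by its calls in the RBFOX2-INSCRIBE libraries, so the values are a description with no test.

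Summed over filtered sites in clusters, Ywhag had 45, 47 and 26 edited reads in RBFOX2-INSCRIBE slices, 16, 16 and 8 in enzyme-only and 16, 11 and 10 in buffer-only slices. For the gene counts, CPM was scaled to the edited reads assigned to genes in the library, with edgeR's TMM factors. A read counted for each gene that its cluster names. As CPM the Ywhag values were 54.8, 57.0 and 38.1 in RBFOX2-INSCRIBE, 24.7, 23.3 and 12.8 in enzyme-only and 25.3, 23.3 and 22.3 in buffer-only slices. RBFOX2-INSCRIBE thus lay above both other groups in every library. Of all genes tested, 9.74% had every RBFOX2-INSCRIBE library above every enzyme-only library in this way, and 9.7% above every buffer-only library. The log2 change was 1.28 (SE 0.30) for RBFOX2-INSCRIBE over enzyme-only, with an adjusted p of 0.00981 from edgeR's quasi-likelihood test with Benjamini-Hochberg adjustment over all genes tested. Ywhag was 1 of 5 members tested that passed 0.05, where 1.64% of all 9484 genes tested did. Against buffer-only slices its log2 change was 1.06 (SE 0.31, edgeR adjusted p 0.0585), past the threshold for 0 of the 5 members tested and for 1.72% of all genes.

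Part of this difference lay in the confident cluster, which no enzyme-only or buffer-only library had called. Filtered sites inside it gave 26, 27 and 12 edited reads in the RBFOX2-INSCRIBE replicates and 0 in each enzyme-only and buffer-only library. Filtered sites elsewhere in Ywhag gave 19, 20 and 14 in RBFOX2-INSCRIBE, 16, 16 and 8 in enzyme-only and 16, 11 and 10 in buffer-only slices. With the cluster left out, an alternative chosen after seeing the data, the log2 change over enzyme-only was 0.14 (SE 0.36, edgeR adjusted p 0.90). The 12 to 24 listed edited reads of the enzyme-only slices and the 1 to 2 of the buffer-only slices in the cluster were all at sites that did not reach the score limit, and were dropped. The call was also lost when RBFOX2-INSCRIBE replicate 1 (edgeR adjusted p 0.0518), RBFOX2-INSCRIBE replicate 2 (0.0736) or enzyme-only replicate 3 (0.108) was left out.

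**Figure D2:**
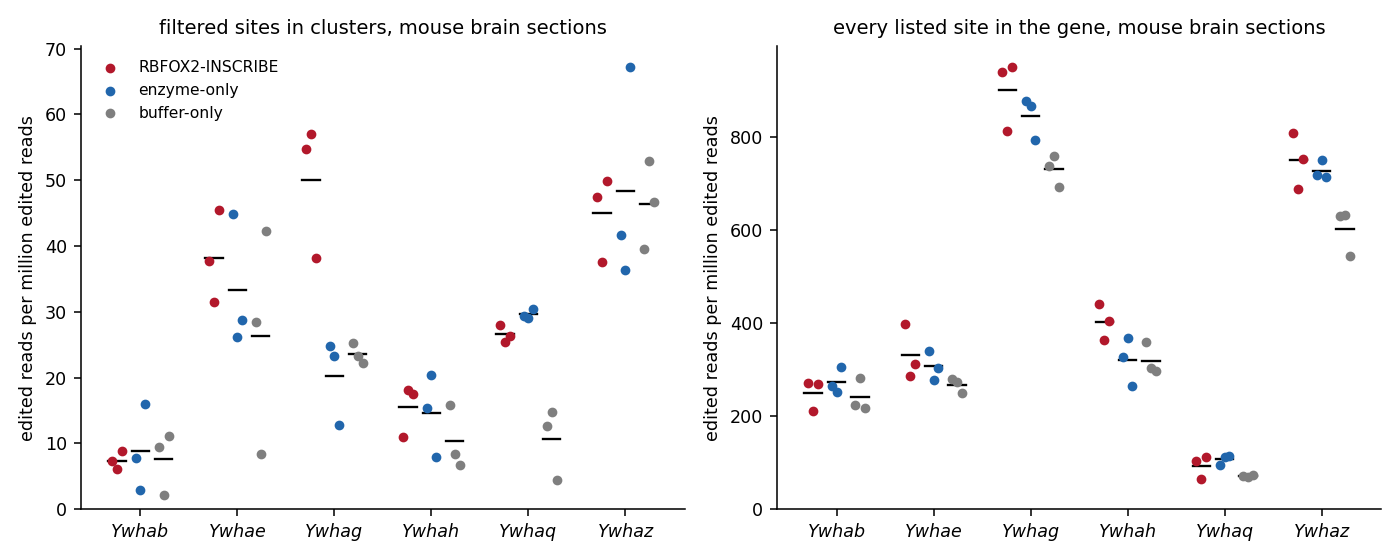
Edited reads of the 6 members as CPM in each brain library, for filtered sites in clusters (left) and every listed site in the gene body (right), with RBFOX2-INSCRIBE, enzyme-only and buffer-only libraries side by side, points for libraries and lines for means (n = 3). With filtered sites Ywhag has 38.1 to 57.0 CPM in RBFOX2-INSCRIBE and 12.8 to 24.7 in enzyme-only slices, and with every listed site 813 to 951 and 794 to 877.

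With every listed site of the gene body, an alternative chosen after seeing the data, the picture for Ywhag was another one. Over its whole gene body it had 700, 598 and 561 edited reads in RBFOX2-INSCRIBE slices, 566, 589 and 449 in enzyme-only and 455, 341 and 261 in buffer-only slices, and the RBFOX2-INSCRIBE and enzyme-only ranges overlapped. As CPM the values were 939, 813 and 951 in RBFOX2-INSCRIBE, 877, 866 and 794 in enzyme-only and 738, 760 and 693 in buffer-only slices. On this count no member passed the test for RBFOX2-INSCRIBE over enzyme-only (0 of 6, where 2.04% of 7699 genes did), for enzyme-only over buffer-only (0 of 6, where 1.7% did) or for RBFOX2-INSCRIBE over buffer-only (0 of 6, where 4.12% did). The member nearest the threshold over enzyme-only was Ywhah, with a log2 change of 0.33 (SE 0.11, edgeR adjusted p 0.0913).

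Counting every listed site but only inside the clusters gave other calls again. Ywhag then had a log2 change of 0.50 over enzyme-only (edgeR adjusted p 0.264) with 0 of the members called and 1.95% of all genes called. Enzyme-only over buffer-only gave Ywhag 0.94 (edgeR adjusted p 0.0568) and called Ywhaq alone, at 1.36 (edgeR adjusted p 0.0236), where 1.52% of genes were called. RBFOX2-INSCRIBE over buffer-only called Ywhag at 1.44 (edgeR adjusted p 1.23e-05) and Ywhaq at 1.22 (edgeR adjusted p 0.0299), where 2.69% of genes were called. The 3 contrasts share their libraries in pairs, so these values are not independent of each other. For Ywhag the counted clusters also take in its confident cluster, which RBFOX2-INSCRIBE libraries alone had called. Part of the tested region was thus chosen by the group with the high counts, and its p-values are no independent support.

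Ywhah, the eta isoform, had its most edited position within 100 nt downstream of UGCAUG, and none of its 3 most edited positions passed the filter. The gene lies at chr5:33018816-33027966 on the plus strand, and its 3′ UTR of 774 nt holds the motif 1 time. The motif and the stretch with the leading sites are shown, the capitals marking UGCAUG in the mouse and human motif windows and, in the stretch of leading sites, the cytosines listed as edited that recurred across libraries. The human motif window (GRCh38, plus strand) was identical at 26 of 30 letters.
Ywhah motif chr5:33027575-33027604: tgTGCATGcaaaaatgaatttgaccctctc
YWHAH motif chr22:31957182-31957211: tgTGCATGcaaaaatgaattcacccctccc
Ywhah leading sites chr5:33027618-33027647: gctaatggaaaCtgaCaCagCgaCaaCtCa

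At 33027633 of Ywhah, 14 of 2241, 12 of 1980 and 12 of 1611 reads were edited in RBFOX2-INSCRIBE, 5 of 1849, 5 of 2047 and 1 of 1669 in enzyme-only and 1 of 2647, 1 of 1931 and 2 of 1277 in buffer-only slices. Every RBFOX2-INSCRIBE count exceeded every enzyme-only count. At 33027641 the order was not kept: 8, 7 and 8 reads were edited in RBFOX2-INSCRIBE against 1, 11 and 1 in enzyme-only slices, so enzyme-only replicate 2 was the highest library. Within 100 nt of the motif, Ywhah had 76, 53 and 68 listed edited reads in RBFOX2-INSCRIBE slices, 28, 48 and 13 in enzyme-only and 24, 14 and 15 in buffer-only slices. Every RBFOX2-INSCRIBE count was above every other count, but scaled to the listed edited reads of the library the values were 98.8, 67.5 and 106.7 CPM in RBFOX2-INSCRIBE, 42.3, 68.3 and 21.8 in enzyme-only and 36.1, 28.1 and 35.6 in buffer-only slices, and enzyme-only replicate 2 lay above RBFOX2-INSCRIBE replicate 2. Over filtered sites in clusters, however, Ywhah had 9, 15 and 12 edited reads in RBFOX2-INSCRIBE slices, 10, 14 and 5 in enzyme-only and 10, 4 and 3 in buffer-only slices, the log2 change over enzyme-only was 0.06 (SE 0.45, edgeR adjusted p 0.968), and the groups overlapped.

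Ywhaq, the theta isoform, also known from T cells, was the least covered member, with 122 listed 3′ UTR sites at a median of 210.5 covering reads in brain. It lies at chr12:21390071-21417637 on the minus strand and has 1 UGCAUG in its 3′ UTR of 1377 nt. The confident RBFOX2-INSCRIBE cluster chr12:21390507-21390551 lay 30 nt from it. The leading edited position of that cluster and the motif are shown. The most edited listed position of the whole gene was another, 21390612, with 8 edited reads against 7 at the one shown. Recurring edited cytosines are in capitals in the first sequence and UGCAUG in the second, which was identical to the human YWHAQ window at 27 of 30 letters.
Ywhaq leading site chr12:21390503-21390532: cctgcacttCaataCttttccatgcagagt
Ywhaq motif chr12:21390559-21390588: aaTGCATGtcctttcttaatacactaggaa

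The reads behind that Ywhaq cluster were few. It held 4, 2 and 3 listed edited reads in RBFOX2-INSCRIBE slices, 1, 2 and 2 in enzyme-only and 2, 1 and 0 in buffer-only slices, and its leading site, 21390518, had 3 of 143, 2 of 121 and 1 of 98 reads edited in RBFOX2-INSCRIBE against 1 of 131 in enzyme-only replicate 1 and none listed in the other libraries. Over filtered sites in all its clusters Ywhaq had 23, 21 and 18 edited reads in RBFOX2-INSCRIBE slices, 19, 20 and 19 in enzyme-only and 8, 7 and 2 in buffer-only slices. Both groups with enzyme were thus above buffer-only in every library and overlapped each other, and 8.22% of all genes tested had every enzyme-only library above every buffer-only library as CPM. The log2 change was −0.17 (SE 0.33, edgeR adjusted p 0.867) for RBFOX2-INSCRIBE over enzyme-only, 1.43 (SE 0.42, edgeR adjusted p 0.0951) for enzyme-only over buffer-only and 1.26 (SE 0.42, edgeR adjusted p 0.129) for RBFOX2-INSCRIBE over buffer-only. For enzyme-only over buffer-only 0 of the 5 members tested passed, where 0.306% of all genes did.

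Ywhaz, the zeta isoform, often used as a reference gene in RNA quantification, had the most deeply covered 3′ UTR of the family, with 1435 listed sites at a median of 2014 covering reads, of which 3 passed the filter. It lies at chr15:36770770-36796929 on the minus strand. Over filtered sites in clusters it had 39, 31 and 34 edited reads in RBFOX2-INSCRIBE slices, 27, 25 and 42 in enzyme-only and 25, 25 and 21 in buffer-only slices, 240 of its 248 filtered sites being intronic. The log2 change was −0.12 (SE 0.26, edgeR adjusted p 0.878) over enzyme-only and −0.05 (SE 0.27, edgeR adjusted p 0.958) over buffer-only. At its leading listed site, 36771102, 7 of 3470, 7 of 3605 and 6 of 2429 reads were edited in RBFOX2-INSCRIBE, 5 of 2858, 6 of 3058 and 3 of 2344 in enzyme-only slices, and 2 of 4209 and 1 of 2711 in buffer-only replicates 1 and 2. The first group touched the second and both were above the buffer-only counts.

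Ywhae, the epsilon isoform, which lies in the human chromosomal region deleted in Miller-Dieker lissencephaly, had 31, 26 and 31 filtered edited reads in RBFOX2-INSCRIBE slices, 29, 18 and 18 in enzyme-only and 18, 4 and 19 in buffer-only slices. Buffer-only replicate 2 was the low library. The log2 change over enzyme-only was 0.18 (SE 0.31, edgeR adjusted p 0.852). In Ywhae (chr11:75732869-75765845, plus strand) some edited cytosines lay just downstream of UGCAUG. The most edited listed position of the gene was another, 75764770, with 22 edited reads and 585 nt from the motif. The stretch at the motif is shown, with the motif and the recurring edited cytosines in capitals.
Ywhae chr11:75765353-75765382: ccTGCATGcgtgttCaaCtCtgttcctcct

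At 75765370 of Ywhae, 9 of 1960, 3 of 2012 and 4 of 1364 reads were edited in RBFOX2-INSCRIBE, 2 of 1595, 2 of 1741 and 1 of 1341 in enzyme-only slices and 1 of 1592 in buffer-only replicate 2. All RBFOX2-INSCRIBE counts were above all enzyme-only counts, by as little as 1 read. At 75765367 the counts were 5, 1 and 4 in RBFOX2-INSCRIBE, 3, 2 and 1 in enzyme-only slices and 3 in buffer-only replicate 1, and the groups overlapped.

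Ywhab, the beta isoform, had too few filtered edited reads to be tested: 6, 5 and 6 in RBFOX2-INSCRIBE, 5, 2 and 10 in enzyme-only and 6, 1 and 5 in buffer-only slices. Its gene (chr2:163994960-164018588, plus strand) was nevertheless edited widely when every listed site was counted, with 202, 156 and 159 edited reads in RBFOX2-INSCRIBE slices, 171, 172 and 173 in enzyme-only and 138, 127 and 82 in buffer-only slices. As CPM this was 271, 212.2 and 269.6 in RBFOX2-INSCRIBE, 264.8, 253 and 305.9 in enzyme-only and 223.9, 282.9 and 217.8 in buffer-only slices. The 3 groups overlapped on this scale.

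**Figure D3:**
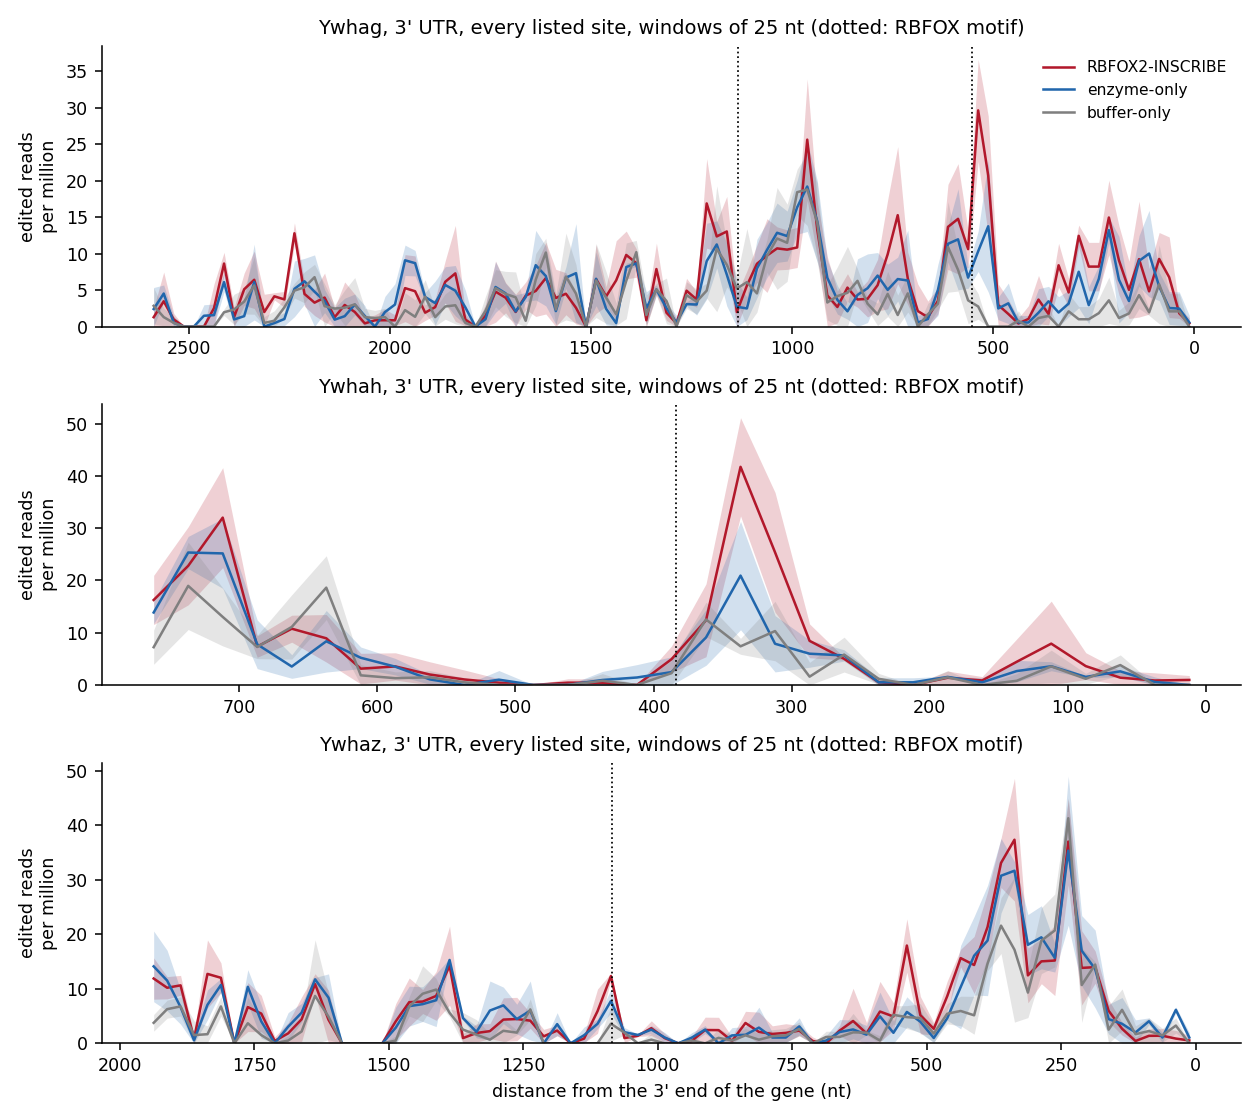
Listed edited reads, as CPM on the y axis, along the 3′ UTRs of Ywhag, Ywhah and Ywhaz in 25-nt windows, against distance from the 3′ end of the gene in nt, with lines for group means, bands for SD (n = 3) and dotted lines at the RBFOX motif. In Ywhag and Ywhah the RBFOX2-INSCRIBE line stands above enzyme-only beside a motif, where Ywhag had 77, 72 and 65 edited reads within 100 nt in RBFOX2-INSCRIBE and 38, 42 and 46 in enzyme-only slices. That Ywhag range takes in the confident cluster chosen by RBFOX2-INSCRIBE calls.

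The position of edited reads relative to UGCAUG was then set out for all 6 members together, using every listed 3′ UTR site, so that the filter played no part. This measure was chosen after the Ywhag sites had been seen, and its windows take in the confident Ywhag cluster. Within 100 nt of a UGCAUG lay 24.0, 24.8 and 26.5% of the 3′ UTR edited reads in the RBFOX2-INSCRIBE replicates, 19.7, 20.6 and 21.6% in the enzyme-only replicates and 19.6, 21.6 and 18.1% in the buffer-only replicates, where these windows made up 14.7% of the 3′ UTR length. RBFOX2-INSCRIBE was above every other library, and enzyme-only and buffer-only libraries overlapped. The means were 25.1% ± 1.27 for RBFOX2-INSCRIBE, 20.6% ± 0.935 for enzyme-only and 19.7% ± 1.77 for buffer-only slices (SD, n = 3 each). Leaving out Ywhag, windows of 50 or 200 nt and leaving out any single library kept RBFOX2-INSCRIBE above enzyme-only on average.

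The edited share of covering reads gave a looser picture of the same windows. Near the motif it was 0.158, 0.128 and 0.199% in RBFOX2-INSCRIBE, 0.117, 0.113 and 0.145% in enzyme-only and 0.0702, 0.0901 and 0.112% in buffer-only slices, and RBFOX2-INSCRIBE and enzyme-only overlapped. In the rest of the 3′ UTRs it was 0.116, 0.0926 and 0.139% in RBFOX2-INSCRIBE and 0.113, 0.109 and 0.117% in enzyme-only slices, with the RBFOX2-INSCRIBE libraries on both sides of enzyme-only.

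The members differed in the edited reads near each motif. At the Ywhag motif nearer the 3′ end the 100-nt windows held 77, 72 and 65 edited reads in RBFOX2-INSCRIBE slices, 38, 42 and 46 in enzyme-only and 20, 16 and 10 in buffer-only slices. As CPM, scaled here to the listed edited reads of the library, they held 100.2, 91.7 and 102 in RBFOX2-INSCRIBE, 57.4, 59.8 and 77.1 in enzyme-only and 30.1, 32.1 and 23.7 in buffer-only slices. There was no overlap by reads or by CPM, but this window takes in the confident cluster chosen by RBFOX2-INSCRIBE calls. How often windows of other genes separate in this way was not counted. At the other Ywhag motif they held 48, 60 and 62 in RBFOX2-INSCRIBE, 45, 45 and 29 in enzyme-only and 38, 31 and 27 in buffer-only slices. As CPM, scaled in the same way, these were 62.4, 76.5 and 97.3 in RBFOX2-INSCRIBE, 67.9, 64.1 and 48.6 in enzyme-only and 57.2, 62.1 and 64.1 in buffer-only slices, and the groups overlapped. That second window is shown because none of the confident clusters lay at it.
Ywhag other motif chr5:135909522-135909551: gtTGCATGcagagtgtgcagtttatgtctt

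Ywhae had 63, 47 and 31 edited reads near its motif in RBFOX2-INSCRIBE, against 40, 37 and 37 in enzyme-only slices, and Ywhab 43, 32 and 35 against 35, 33 and 32, so the 2 groups overlapped in both genes. Ywhaq had 14, 5 and 16 in RBFOX2-INSCRIBE, against 4, 7 and 15 in enzyme-only slices, and Ywhaz 25, 16 and 17 against 16, 15 and 13. Ywhaq overlapped and Ywhaz touched at 16 reads. Scaled to the listed edited reads of the library, RBFOX2-INSCRIBE and enzyme-only overlapped in Ywhab, Ywhae, Ywhah, Ywhaq and Ywhaz. Both Ywhag motifs together, the confident cluster included, gave 162.6, 168.2 and 199.2 CPM in RBFOX2-INSCRIBE, above 125.3, 123.8 and 125.6 in enzyme-only slices. UGCAUG was present in the 3′ UTR of all 6 mouse genes, so the presence of the letters did not set these members apart.

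**Figure D4:**
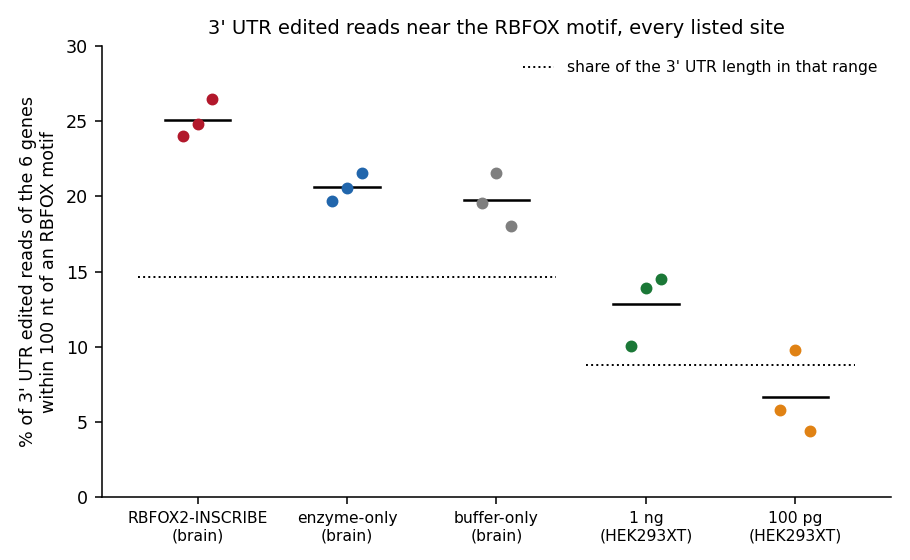
Percent of the listed 3′ UTR edited reads of the 14-3-3 genes that lie within 100 nt of the RBFOX motif, with points for libraries, lines for group means (n = 3) and dotted lines at the share of 3′ UTR length in that range, 14.7% in mouse and 8.82% in human. RBFOX2-INSCRIBE libraries sit at 24.0 to 26.5%, enzyme-only at 19.7 to 21.6% and buffer-only at 18.1 to 21.6%.

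Summed over the family, RBFOX2-INSCRIBE slices had 110 ± 7.94 filtered sites in clusters, enzyme-only slices 92.3 ± 8.51 and buffer-only slices 61.7 ± 17.2 (SD, n = 3 each). Per 1000 clusters of the library, the clusters with a member symbol came to 0.448 in RBFOX2-INSCRIBE, 0.436 in enzyme-only and 0.366 in buffer-only slices, so that RBFOX2-INSCRIBE and enzyme-only slices were closer on this scale than by their numbers of sites. The edited share over filtered sites ran the other way, at 3.11% ± 0.205 in RBFOX2-INSCRIBE, 4.86% ± 0.723 in enzyme-only and 4.46% ± 0.171 in buffer-only slices. Over every listed site of the gene bodies it was 0.122% in RBFOX2-INSCRIBE, 0.119% in enzyme-only and 0.0928% in buffer-only slices, so the order of the first 2 groups turned with the filter. No p is given for these sums over the members, and 3 libraries against 3 cannot reach a two-sided exact permutation p below 0.1.

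Striatal neuron markers were highest in the RBFOX2-INSCRIBE group. Their summed edited reads, scaled as for the neuronal markers, were 1080, 1193 and 1568 CPM in RBFOX2-INSCRIBE, 611.5, 598 and 765 in enzyme-only and 479, 521 and 607.5 in buffer-only slices. With every listed site in gene bodies, 3 of the 6 markers rose over enzyme-only (edgeR adjusted p under 0.05, where 2.04% of genes were called). Neuron markers as a whole had 1 of 8 tested higher, inhibitory markers 0 of 3, excitatory markers 0 of 3, astrocyte markers 0 of 6, microglia markers 0 of 3 and endothelial markers 0 of 1, and 1 of 6 oligodendrocyte markers was lower. On the same count 2 of 6 striatal markers were higher in enzyme-only over buffer-only, where 1.7% of genes were called. In RBFOX2-INSCRIBE over buffer-only 6 of 6 were higher, where 4.12% of genes were called. With filtered sites in clusters 1 of 3 striatal markers tested rose over enzyme-only, where 1.64% of genes were called. The part of the striatal difference in the Ywhag result was not tested.

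The confident lists, which the authors made by intersecting the clusters of 3 replicates, held 5 member clusters for RBFOX2-INSCRIBE, 2 for enzyme-only and 1 for buffer-only slices. Those of RBFOX2-INSCRIBE were the Ywhag and Ywhaq clusters above, chr5:33027413-33027457 in the 3′ UTR of Ywhah, and chr15:36783615-36783659 and chr15:36784395-36784439 in an intron of Ywhaz. The last of these was also the buffer-only cluster, and the authors' cleaned list, without buffer-only clusters, left it out. UGCAUG lay within 100 nt of 2 of the 5 (Ywhag and Ywhaq), where 21.5% of all 5177 clusters of that list had it, and within 100 nt of 0 of the 2 enzyme-only clusters, where 8.52% had it. None of the 5 contained the letters.

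Apart from Ywhag, these clusters rested on very few reads. The Ywhah cluster held 0, 0 and 2 listed edited reads in the RBFOX2-INSCRIBE replicates, 0 in each enzyme-only replicate and 1 in buffer-only replicate 1. The Ywhaz cluster at 36783615 held 1, 0 and 1 in RBFOX2-INSCRIBE and 0 in every enzyme-only and buffer-only library, and the enzyme-only Ywhae cluster, chr11:75765641-75765685, 0, 2 and 1 in the enzyme-only replicates and 0 in all RBFOX2-INSCRIBE and buffer-only libraries. Of the RBFOX2-INSCRIBE confident clusters, 84.3% overlapped a scored cluster of all 3 replicates.

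In the HEK293XT libraries the 14-3-3 mRNAs were less deeply covered, and the filter kept another kind of site. Species, cell type, RNA input and library kit all differ from the brain libraries, and their parts in this cannot be told apart. The members had 220 kept and 580 dropped sites, with medians of 157 and 328 covering reads and edited shares of 3.13 and 0.393%. Filtered sites lay in 3′ UTRs for 79.5% and listed sites for 71.1%, and introns held 3.18% of filtered sites. Of the kept sites 67 rested on 1 edited read. Over all listed sites of a library the filter kept 52.08 to 56.23% from 1 ng and 50.46 to 51.35% from 100 pg.

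The comparison of 1 ng with 100 pg asked how input amount bears on the edits seen with no antibody. On filtered sites in clusters, every 1 ng library was below every 100 pg library in 3 of the 6 genes, as it was in 11.6% of all 2584 genes tested. YWHAQ had 0, 14 and 8 from 1 ng and 82, 82 and 81 from 100 pg, YWHAZ 26, 10 and 21 from 1 ng and 74, 80 and 95 from 100 pg, and YWHAB 11, 11 and 13 from 1 ng and 31, 115 and 25 from 100 pg. None of these passed edgeR's test across genes: the log2 change was −3.35 (SE 0.74, edgeR adjusted p 0.0636) for YWHAQ, −1.86 (SE 0.53, edgeR adjusted p 0.172) for YWHAZ and −2.04 (SE 0.68, edgeR adjusted p 0.251) for YWHAB. In all 0 of 5 members tested passed, where 0.31% of 2584 genes did. In simulated data of this design 7% of genes changed 4-fold were called, so a large change could be missed here.

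With every listed site of the gene body these 3 genes overlapped between the inputs as CPM, but not by edited share of covering reads. For YWHAQ that share was 0.37 to 0.43% from 1 ng and 0.90 to 1.24% from 100 pg. For YWHAZ it was 0.44 to 0.68% and 1.72 to 1.80%, and for YWHAB 0.45 to 0.82% and 0.92 to 2.15%. How many other genes separate by this share was not counted. YWHAQ had 381.8, 716.7 and 537.5 CPM from 1 ng and 1019, 657.4 and 608.7 from 100 pg, YWHAZ 711.5, 485.9 and 609.6 from 1 ng and 543.1, 564.4 and 702.8 from 100 pg, and YWHAB 286.3, 321.9 and 308.1 from 1 ng and 256.3, 775.2 and 269.8 from 100 pg. The log2 changes were then −0.48 for YWHAQ, −0.0019 for YWHAZ and −0.49 for YWHAB (edgeR adjusted p 0.825, 0.999 and 0.918). The median over the members tested was −1.86 with filtered sites, where that of all genes was 0.02, and 0.07 with every listed site of the gene body, where that of all genes was −0.05.

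YWHAE had 9, 23 and 13 filtered edited reads from 1 ng and 54, 23 and 11 from 100 pg, and YWHAG 5, 14 and 13 from 1 ng and 2, 24 and 0 from 100 pg. Both overlapped, with log2 changes of −0.79 (SE 0.76, edgeR adjusted p 0.855) and 0.48 (SE 1.2, edgeR adjusted p 0.962). YWHAH failed the filter on low counts with 9, 5 and 4 from 1 ng and 6, 0 and 8 from 100 pg. Of 10 separate stretches of clusters labelled YWHAH, 1 lay outside the annotated gene. Gene-body counts also leave out sites lying in more than 1 gene, so cluster and gene-body counts cover different stretches. With every listed site in the clusters YWHAH had 12, 15 and 6 from 1 ng and 7, 0 and 8 from 100 pg, which overlapped and again failed the low-count filter. When every listed site of the gene body was counted it had 24, 39 and 26 from 1 ng and 4, 2 and 0 from 100 pg, a log2 change of 3.98 (SE 0.90, edgeR adjusted p 0.421), with no overlap, as in 8.17% of all 3108 genes tested, and 0 of 6 members and 0% of these genes were called by edgeR, with 202 genes at an unadjusted p under 0.05. With every listed site in clusters edgeR likewise called 0% of 2868 genes, 177 of them at an unadjusted p under 0.05.

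**Figure D5:**
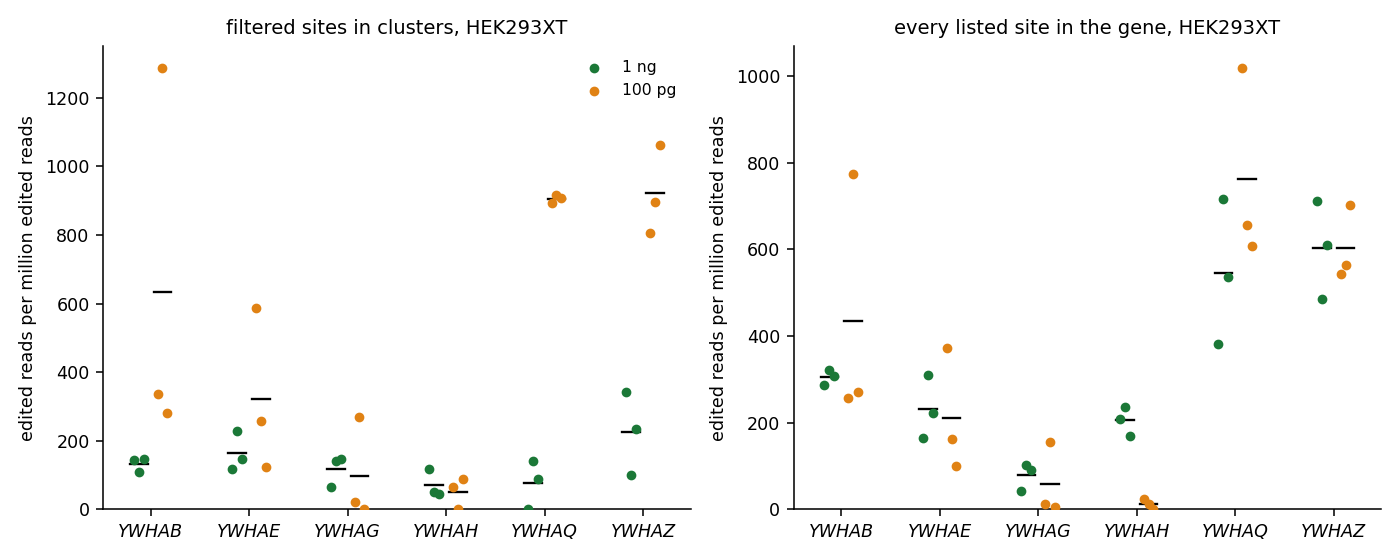
Edited reads of the 6 members as CPM in each HEK293XT library from 1 ng and 100 pg, for filtered sites in clusters (left) and every listed site in the gene body (right), with points for libraries and lines for means (n = 3). YWHAQ has 0 to 139.7 filtered CPM from 1 ng and 893 to 918 from 100 pg, while YWHAH over listed sites has 170.4 to 237 from 1 ng and 0 to 24.4 from 100 pg.

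Sites from 100 pg were often seen in 1 library alone. Of 87 member sites with at least 5 edited reads in a 100 pg library, 69 (79.3%) were unlisted in the further 100 pg libraries, while from 1 ng there were 7 such sites, 4 of them alone. YWHAB had 19 of 165 reads edited at 44906809 on chromosome 20 in 100 pg replicate 2 and 14 of 114 at 44906933 in replicate 1, and YWHAG had 15 of 76 at 76327191 on chromosome 7 in replicate 2, each unlisted in the other 5 HEK293XT libraries. In YWHAQ 4 intronic sites of 100 pg replicate 1, picked out after their values were seen, had every covering read changed (12 of 12, 13 of 13, 13 of 13 and 7 of 7). They made up 45 of the 167 listed edited reads of YWHAQ in that library and were removed by the study's filter.

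A YWHAQ cluster, by contrast, recurred in all 3 libraries from 100 pg. The confident cluster chr2:9584988-9585062 (GRCh38, 3′ UTR) held 4, 7 and 7 listed edited reads from 1 ng, against 24, 34 and 25 from 100 pg. At its leading site, 9585029, 2 of 332, 2 of 569 and 1 of 548 reads were edited from 1 ng and 10 of 653, 9 of 502 and 8 of 485 from 100 pg. The groups did not overlap, and as the cluster had been chosen by the 100 pg calls no test is given. It had no UGCAUG within 200 nt, and it is shown with the edited cytosines that recurred in capitals.
YWHAQ chr2:9585014-9585043: gtaaCtcccaaacaCttatgtagaggaCta

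The HEK293XT lists held 3 confident member clusters from 1 ng (YWHAE in 2 places and YWHAZ) and 4 from 100 pg (YWHAE, YWHAQ in 2 places and YWHAZ). Of the YWHAE clusters, chr17:1344666-1344740 lay 34 nt from a UGCAUG and held 0, 2 and 5 edited reads from 1 ng and 5, 0 and 4 from 100 pg. Over the family, 10.1, 13.9 and 14.5% of listed 3′ UTR edited reads lay within 100 nt of UGCAUG from 1 ng and 5.77, 9.79 and 4.41% from 100 pg, where these windows made up 8.82% of the 3′ UTR length and YWHAB had no motif. The 1 ng libraries were above the 100 pg ones, in cells that were given no RBFOX2 antibody.

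Of 58 genes for known 14-3-3 partners and kinases that write 14-3-3 sites, 47 could be tested in brain with filtered sites. Over enzyme-only slices 0 passed the test, and their median log2 change was −0.13 where that of all genes was −0.02. For enzyme-only over buffer-only 0 passed, with a median of 0.05 where that of all genes was −0.01. For RBFOX2-INSCRIBE over buffer-only, Foxo1, a transcription factor that 14-3-3 proteins hold in the cytoplasm, rose at a log2 change of 1.34 (edgeR adjusted p 0.00294) and Kif1c, a kinesin motor, fell at −1.21 (edgeR adjusted p 0.0126), which was 4.26% of the list where 1.72% of all genes were called. With every listed site of the gene body Foxo1 was also higher over enzyme-only, at 0.91 (edgeR adjusted p 0.0127). It was the 1 call among 52 partners tested (1.92%), where 2.04% of all genes were called. Over buffer-only 2 of the 52 were called on that count (3.85%), where 4.12% of all genes were, so neither share exceeded that of all genes. In HEK293XT 5 of the partners could be tested and 0 passed.

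Across the 9 brain libraries, the genes whose filtered edited CPM followed Ywhag, Ywhah, Ywhaq and Ywhaz most closely were picked by Pearson's r on the log2 scale among 4986 or 4987 genes. This is a description with no test, over 9 libraries that all genes share. For Ywhag they were Arid1b (r = 0.951), Kcnma1 (0.878) and Gm49522 (0.87). For Ywhaq they were Slc7a11 (0.982), Gprin3 (0.963) and Grm4 (0.955). Ywhah was followed by Trhde (0.903), Smad3 (0.9) and Moap1 (0.889), and Ywhaz by Slc35e2 (0.895), Fbxw7 (0.873) and Ubp1 (0.862).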

How the data were processed

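The deposited files gave, for each of 15 libraries, the listed C-to-T sites with edited and covering read counts (whole counts, with an edited fraction) and a score written by the authors' SAILOR run, and the edit clusters with the score columns the authors' FLARE run gave them; per group, the authors deposited confident and cleaned cluster lists, whose signal column is the read depth of the cluster in the first replicate. The authors trimmed reads with cutadapt, removed reads on repeats and aligned the rest with STAR, version 2.5.2 to mm10 and version 2.4.0 to hg38, and dropped known variants. The deposited score equals the probability that a beta distribution of edited and unedited reads exceeds 0.01, as checked here.

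A gene received the sites lying, on the same strand, in the union of clusters labelled with its symbol in any library of the species, and a cluster naming several genes counted for each. Gene-body counts took sites inside the annotated gene on the same strand and left out sites lying in more than 1 gene. Edited reads per gene were compared with edgeR 4.0.16 (limma 3.58.1, R 4.3.3; quasi-likelihood test, TMM, filterByExpr, group only), the 9 brain libraries in 1 fit and the 6 HEK293XT libraries in another, and called at an adjusted p under 0.05. Depth is the number of listed sites and covering reads per library. Files were read with Python 3.11.15 (pandas 2.3.3, scipy 1.17.1), and UGCAUG was searched on the transcribed strand of GRCm38 and GRCh38. Sequences are from those genomes.

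All 6 members are named, with their 3 most edited sites as candidates, the 3 genes most alike to each tested member (those of Ywhae are not reported here), and at most 4 called partners per contrast. The members and lists were chosen with earlier results of these data known. On simulated data of the RBFOX2-INSCRIBE over enzyme-only design (9484 genes), 91% of genes changed 4-fold and 55% changed 2-fold were called, with 7% of calls false. Alternatives were other score limits, every listed site, a minimum cover, other gene assignments, DESeq2 1.42.0 (size factors or Wald test), no filter on low counts, a cover offset, a replicate block and leaving out each replicate. Equal replicate numbers were not treated as pairs in the main fits.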

Additional observations from a re-analysis of the deposited data

How the results depend on the processing

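Of 415 log2 changes of single members under the alternatives, 362 kept their direction and their side of the threshold, 11 lost and 16 gained a call and 26 changed sign, none of these while called. The number of members called for RBFOX2-INSCRIBE over enzyme-only, 1 with filtered sites in clusters, was 0 with every listed site, a score above 0.75 or 0.9, numbers of sites in place of reads, DESeq2's Wald test, a mean cover offset, the gene body with every listed site or Ywhag without its confident cluster, and 0 to 1 when single libraries were left out. The cause was not tested. For enzyme-only over buffer-only it was 1 in place of 0 with every listed site or a score above 0.25. For RBFOX2-INSCRIBE over buffer-only it was 2 in place of 0 with these, 1 with the gene body, each library's own clusters or DESeq2 size factors, and 0 to 1 without single libraries. For HEK293XT it was 1 in place of 0 with a score above 0.25, numbers of sites, DESeq2 size factors, DESeq2's Wald test or no filter on low counts.

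Among uncalled changes, Ywhah over enzyme-only turned to −0.12 with the cover offset and spanned −0.24 to 0.37 without single libraries. Ywhaz over enzyme-only turned to 0.04 at a cover of at least 20 and 0.05 with every listed gene-body site (−0.30 to 0.17 without single libraries). For enzyme-only over buffer-only, Ywhae turned to −0.25 at a score above 0.9 (−0.03 to 0.76), Ywhag to 0.94 with every listed site in clusters, 0.14 and 0.36 at scores above 0.25 and 0.9 and 0.18 with every listed gene-body site (−0.39 to 0.03), Ywhah to −0.03 with every listed gene-body site, and Ywhaz to −0.06 at a cover of at least 20 and −0.03 with the gene body (−0.22 to 0.25). Over buffer-only, RBFOX2-INSCRIBE gave Ywhag −0.08 without its confident cluster and Ywhaz 0.29 with every listed gene-body site (−0.16 to 0.07). In HEK293XT, YWHAE turned to 0.18 at a score above 0.9 and 0.14 with every listed gene-body site, and YWHAG spanned −0.11 to 3.36.

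The ratio of edited shares over the family, below 1 for RBFOX2-INSCRIBE over enzyme-only, was 1.165 with every listed site in clusters and 1.026 in gene bodies. For enzyme-only over buffer-only it was 0.806 with every listed site, 0.927 at a cover of at least 20 and 0.967 as a mean over members (0.996 to 1.147 without single libraries), for RBFOX2-INSCRIBE over buffer-only 1.311 in gene bodies, and for 1 ng over 100 pg 2.757 at a score above 0.9. The ratio of sites per library from 1 ng over 100 pg was 1.828 with every listed site. Confident clusters containing UGCAUG numbered 0.

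With the replicate number as a block, the correlations of same-numbered brain libraries lying near 0, Ywhag kept its log2 change of 1.28 over enzyme-only (edgeR adjusted p 0.013), the counts of members called stayed at 1, 0 and 0 for the 3 brain contrasts, and 1 member, YWHAQ (−3.66), was called in HEK293XT. These numbers do not pair the libraries. Genes called with the block were 126, 18 and 130 in the 3 brain contrasts and 28 in HEK293XT, against 156, 29, 163 and 8 without it.

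At a cover of 1000 a site needed 11 edited reads to pass, and shares under 1% in the deeply covered 14-3-3 exons were dropped in every group.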
